A study of Mus musculus with 8 samples.

Results

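CD1d and the proteins that load it with lipid were followed across intestinal epithelial cells (IECs) of mice that have or lack CD1d. The set was chosen by name and held 10 genes, all present among the 25239 genes of the deposited count table. They were Cd1d1 and Cd1d2, the pair of mouse CD1d genes, and 8 genes of the loading machinery, Mttp, Psap, Gm2a, Npc1, Npc2, Gla, Ap3b1 and Ctsl. Cells came from proximal small intestinal crypts of untreated mice aged 7 to 10 weeks, a crypt-enriched preparation by the study's methods. They were sorted as EpCAM+ and CD45-, CD31- and Ter119-, at 150000 cells per sample. The CD1d-KO group (4 samples) carried the genotype CD1d1/2 KO (allele Del(3Cd1d2-Cd1d1)1Sbp), a germline deletion that takes both genes in every cell, and therefore also removes the natural killer T (NKT) cells that need CD1d to develop. The WT group (4 samples) was labelled C57BL/6Jax. The study states that males and females were used, matched between genotypes, but the counts of these samples, given below, show otherwise. The samples came from 2 individual experiments, with 4 mice per genotype by the study's methods, and the labels do not tie a sample to an experiment.

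CD1d is a relative of MHC class I that shows lipids, rather than peptides, to NKT cells. It is built in the endoplasmic reticulum (ER) with β2-microglobulin and receives a first lipid there with the help of microsomal triglyceride transfer protein, the product of Mttp. It then passes over the cell surface into endosomes and lysosomes, a route that in the mouse depends on the adaptor complex AP-3, and exchanges its lipid with the aid of saposins and other lipid transfer proteins. Intestinal epithelium expresses CD1d, and its enterocytes use Mttp mainly to assemble chylomicrons.

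Cd1d1 and Cd1d2 are neighbours of near-identical sequence, which decides how far their read counts can be told apart. In the 6-exon transcripts of GENCODE (Cd1d1-201 and Cd1d2-202), 975 of 1007 aligned coding bases were identical (96.82%), and the longest run with no difference was 202 bases. Exon 3 differed most, with 17 mismatches over 279 bases, while exon 4 had 2 mismatches and is 1 base shorter in Cd1d2 (279 against 278 coding bases). Both exons are shown 5′ to 3′ for each gene, with the letters that differ or lack a partner in capitals, because exon 3 gives reads the most letters to separate the genes and exon 4 few.
Cd1d1 exon 3: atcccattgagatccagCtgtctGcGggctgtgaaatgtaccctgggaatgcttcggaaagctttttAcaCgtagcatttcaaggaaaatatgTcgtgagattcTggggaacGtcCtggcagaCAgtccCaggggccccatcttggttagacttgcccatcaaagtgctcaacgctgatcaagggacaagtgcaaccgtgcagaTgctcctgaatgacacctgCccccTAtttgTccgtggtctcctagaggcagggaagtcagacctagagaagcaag
Cd1d2 exon 3: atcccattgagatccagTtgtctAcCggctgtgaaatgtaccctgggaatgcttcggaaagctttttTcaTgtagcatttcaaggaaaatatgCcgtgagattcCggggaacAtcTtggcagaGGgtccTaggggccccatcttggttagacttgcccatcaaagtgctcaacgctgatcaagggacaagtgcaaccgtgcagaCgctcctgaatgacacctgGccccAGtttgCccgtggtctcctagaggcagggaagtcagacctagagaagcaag
Cd1d1 exon 4: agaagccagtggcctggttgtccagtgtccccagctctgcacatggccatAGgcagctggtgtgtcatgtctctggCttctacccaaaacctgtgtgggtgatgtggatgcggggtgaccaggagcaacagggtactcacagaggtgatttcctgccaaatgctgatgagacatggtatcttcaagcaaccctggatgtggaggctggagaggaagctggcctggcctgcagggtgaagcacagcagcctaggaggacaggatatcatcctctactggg
Cd1d2 exon 4: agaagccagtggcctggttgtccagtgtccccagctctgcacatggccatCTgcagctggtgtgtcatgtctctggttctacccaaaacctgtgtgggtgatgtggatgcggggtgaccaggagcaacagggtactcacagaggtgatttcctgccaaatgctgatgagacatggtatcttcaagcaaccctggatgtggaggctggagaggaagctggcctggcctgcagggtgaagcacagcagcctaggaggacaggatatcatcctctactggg
Over all annotated transcripts, 16.72% of the distinct 50-base words of Cd1d1 also occurred in Cd1d2 and in no other gene, as did 32.02% of the words of Cd1d2. Reads from such stretches cannot be assigned to 1 of the pair, so each count of the pair is uncertain. Of the other members, Mttp, Psap, Gm2a and Ap3b1 shared no 50-base word with another gene, Npc1, Npc2 and Gla shared 0.316%, 0.895% and 0.688%, and Ctsl shared 6.04%.

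Each sample held between 23610266 and 31629435 counted fragments. The samples carried the epithelial markers of the sort, with 7 markers (Epcam, Cdh1, Krt8, Krt18, Krt19, Krt20 and Vil1) at a summed 12747 to 14186 TPM over all samples (TPM, transcripts scaled by exonic length to 1000000 per sample). For markers of other cells, the summed TPM was 2.15 to 3.64 in CD1d-KO and 5.19 to 26.8 in WT for B and plasma cells, 1.499 to 6.38 and 4.09 to 38.8 for T and NK cells, 30.2 to 43.2 and 42.7 to 66.4 for myeloid cells, and 2.36 to 58.1 and 131 to 1109 for stomach. DESeq2 called lower in CD1d-KO 2 of 6 B and plasma cell markers, 2 of 8 T and NK cell markers, 2 of 8 myeloid markers and 6 of 10 stomach markers. Stromal and endothelial markers lay between 0.206 and 0.939 and 4 of 5 erythroid markers at 0 in every sample. CD1d-KO samples 1 and 2 carried counts of the Y-linked Ddx3y (1722 and 2053 normalised counts), whereas no other sample exceeded 1.05. Xist, which female cells express, had 67.9 and 50.5 normalised counts in these samples and 21985 to 35403 in all others. By these genes CD1d-KO 1 and 2 were male and all other samples female. The genotypes are therefore unbalanced for sex, as read from these counts, and for the markers called. Some results are also given without the Y-linked samples or with a stomach score, and elsewhere the part of these differences was not tested. The stomach score is the mean log2 level of the stomach markers, centred per gene. It did not overlap between genotypes (-3.89 to 0.313 in CD1d-KO and 1.23 to 4.67 in WT). A fit with this score can therefore separate stomach RNA from genotype only weakly.

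Cd1d1, which encodes the antigen-presenting chain, and its neighbour Cd1d2 were examined first as a check of the genotype. Cd1d1 (mm10 chromosome 3, 86995836 to 86999340, minus strand) yielded 81, 70, 94 and 50 raw fragments in WT samples 1 to 4, against 8, 3, 5 and 0 in the CD1d-KO samples. Every CD1d-KO sample lay far below every WT sample. After scaling for depth this was 76.3 ± 12.5 normalised counts in WT and 3.72 ± 3.04 in CD1d-KO (SD, n = 4 each), so that 4.88% of the WT mean was left. Cd1d1 was lower in CD1d-KO by a log2 fold change of -4.34 ± 0.45 (SE; 95% interval -5.22 to -3.46; DESeq2 adjusted p = 1.08e-18), and edgeR also called it (-4.30, adjusted p = 0.000942). Without CD1d-KO samples 1 and 2 the log2 fold change was -4.98 (DESeq2 adjusted p = 2.65e-09). The deletion takes Cd1d1 in every cell of CD1d-KO, and the source of the few fragments left there was not tested. B cells and myeloid cells also express CD1d. Their summed markers are given above, without overlap between genotypes for B and plasma cells and with overlap for myeloid cells. The part of immune RNA in the WT values of Cd1d1 was not tested.

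Cd1d2 is listed as a transcribed pseudogene in RefSeq and lies 6303 bases from Cd1d1 (chromosome 3, 86986586 to 86989532, plus strand). WT samples 1 to 4 had 3, 3, 5 and 4 fragments and the CD1d-KO samples 0, 0, 2 and 0. The genotypes did not overlap, but all CD1d-KO values and WT samples 1 and 2 were at or under a floor of 3 fragments per library. After scaling for depth the WT mean was 1.39 times that floor, so no size is given for the difference. Its mean was too low for an adjusted p in the DESeq2 comparison, and the 5 alternative fits that gave it one did not call it (adjusted p = 0.254 to 0.525). Over all samples of a genotype the pair gave 295 and 15 fragments in WT against 16 and 2 in CD1d-KO.

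**Figure D1:**
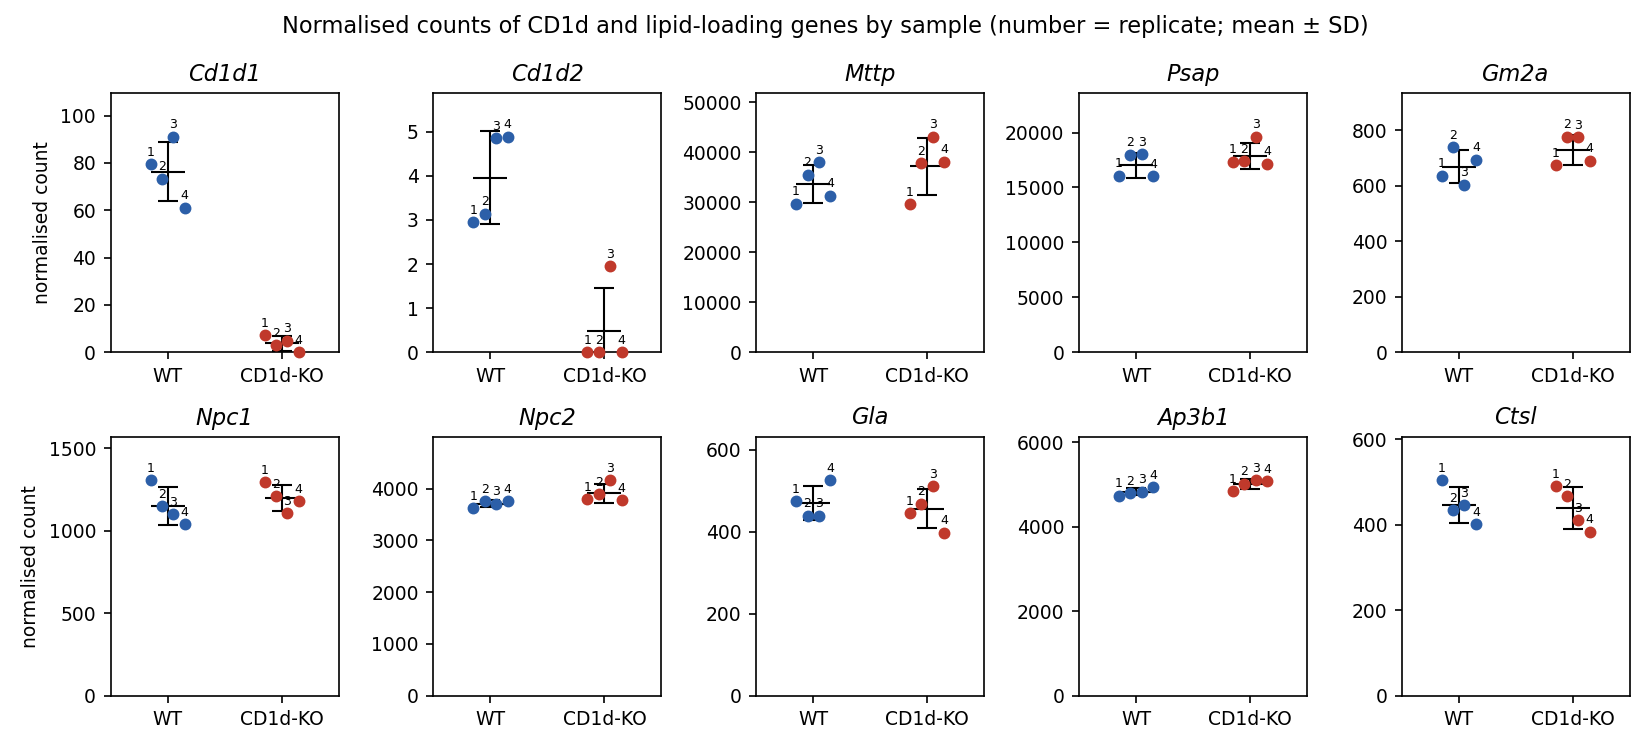
Normalised counts (y axis, linear from 0, a separate scale per gene) of the 10 genes in each WT (blue) and CD1d-KO (red) sample, numbered by replicate, with bars for mean ± SD. Cd1d1 and Cd1d2 separate the genotypes with CD1d-KO lower, Npc2 separates them narrowly with CD1d-KO higher, and the other 7 genes overlap.

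Levels of the members in WT IECs spanned from among the most abundant transcripts to rare ones. On the TPM scale, which corrects for exonic length, WT IECs held Mttp at 588 ± 63.3 TPM (SD, n = 4; rank 234 of all genes) and Psap at 518 ± 31.4 (rank 275). Their ranges overlapped (525 to 664 and 488 to 548), although Mttp was the higher in each WT sample. Ap3b1 (99.8 ± 1.83) and Npc2 (94.7 ± 1.14) followed, and their ranges did not overlap. Npc1 stood at 18.3 ± 1.90 TPM. Gm2a (13.04 ± 1.12), Gla (12.9 ± 1.18) and Ctsl (10.6 ± 1.06) came next, with ranges that overlapped between neighbours. Cd1d1 was below all of these at 3.44 ± 0.56 TPM (rank 11011), and Cd1d2 was lowest at 0.265 ± 0.071. Mttp was thus 171 times and Psap 150 times as abundant per length as Cd1d1, and Mttp alone made up 43.2% of the summed level of the 10 genes, Psap 38.1% and Cd1d1 0.253%. CD1d-KO IECs kept the order of the 8 machinery genes by mean, from Mttp at 648 ± 84.4 TPM to Ctsl at 10.4 ± 1.44. In CD1d-KO 1 alone Psap exceeded Mttp (540 against 529 TPM).

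**Figure D2:**
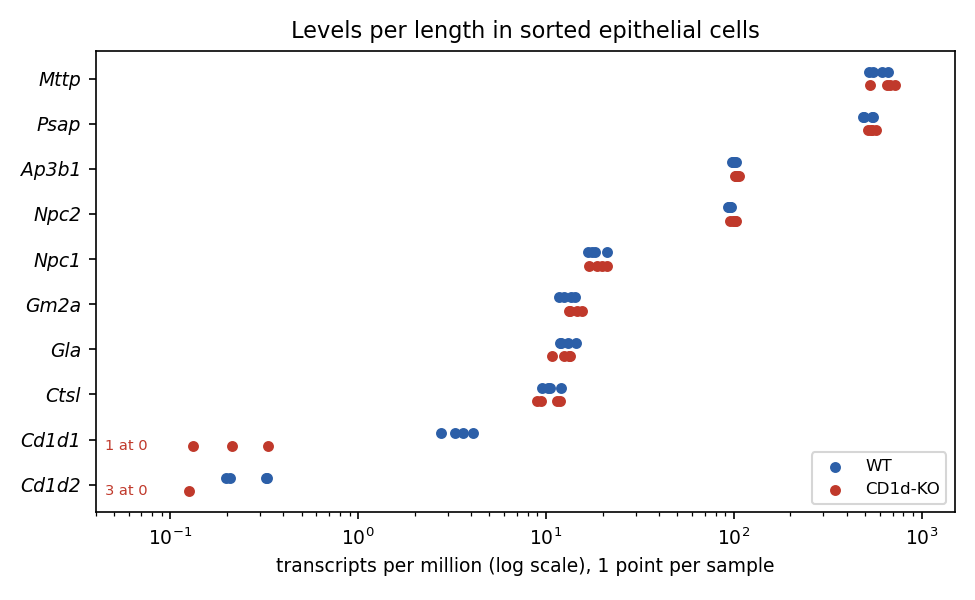
Level of each gene in TPM (x axis, log scale), 1 point per sample, WT in blue and CD1d-KO in red. WT levels run from 588 TPM for Mttp to 0.265 TPM for Cd1d2, and CD1d-KO values at 0 are given as text because a log axis cannot show them.

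None of the 8 machinery genes was called as changed in CD1d-KO IECs. At an adjusted p under 0.05, DESeq2 called 622 of 15383 tested genes (4.04%), 255 higher (1.66%) and 367 lower (2.39%), and among the 9 members that were tested it called Cd1d1 alone. For the remaining 8, 0 were called, 0 had an unadjusted p under 0.05 (against 15.3% of all genes), and edgeR called 0. Their log2 fold changes ran from -0.04 to 0.14 with a median of 0.06, 6 above 0 and 2 below, beside a median of 0.00099 over all genes. A second test asked whether each change was smaller than 1.5-fold in either direction. All 8 passed it (DESeq2 adjusted p from 1.09e-27 for Ap3b1 to 9.48e-05 for Mttp), as did 70.5% of all genes so tested. With the stomach marker score as a covariate 5 of the 8 passed it, and Mttp, Gla and Ctsl no longer did (adjusted p = 0.130, 0.0782 and 0.151). That score did not overlap between genotypes, and errors were wider in this fit (SE of Mttp 0.208, against 0.114 in the main fit). It therefore says little on the part of stomach RNA.

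**Figure D3:**
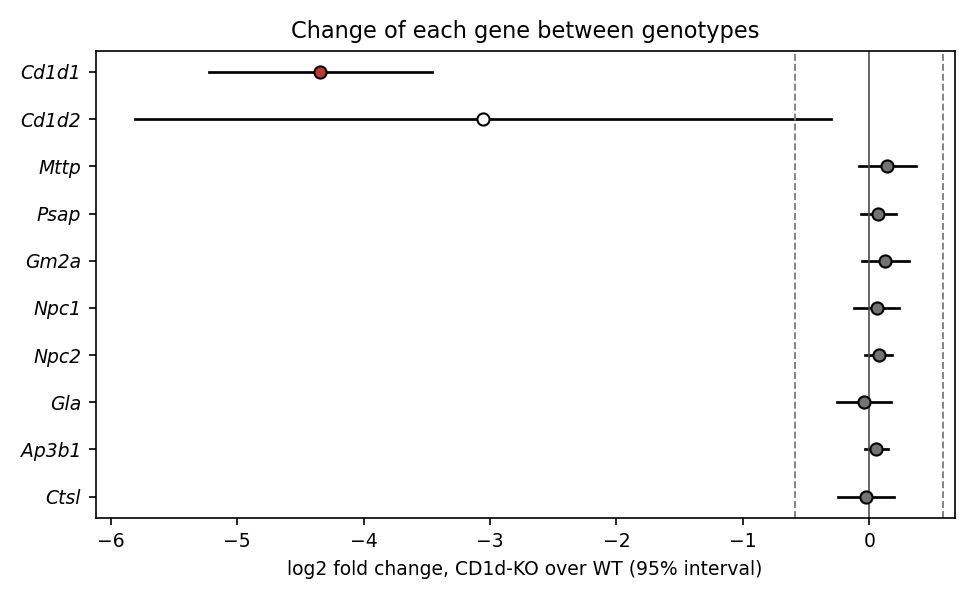
Log2 fold change of CD1d-KO over WT (x axis) with its 95% interval, where dashed lines mark 1.5-fold in each direction, red is called lower, white has no adjusted p and grey is not called. Only the Cd1d1 and Cd1d2 points lie outside the dashed lines, and the intervals of the 8 machinery genes span 0 and stay inside them.

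Mttp (chromosome 3, 138089855 to 138143418, minus strand, 51.1 Mb from Cd1d1) acts in the ER, where it lipidates apolipoprotein B and loads CD1d. Its normalised counts were 29763, 35535, 38081 and 31333 in WT samples 1 to 4 and 29578, 37863, 43154 and 38111 in CD1d-KO samples 1 to 4. CD1d-KO 1 was the lowest of all samples and CD1d-KO 3 the highest, and the genotypes overlapped. The means were 33678 ± 3815 and 37177 ± 5622 (SD, n = 4), a log2 fold change of 0.14 ± 0.11 (SE; 95% interval -0.08 to 0.37; DESeq2 adjusted p = 0.625). Mttp varied more between samples than any other machinery gene (coefficient of variation 11.3% in WT and 15.1% in CD1d-KO). The summed proximal enterocyte markers varied across the same samples, at 5047, 6334, 6185 and 4543 TPM in WT 1 to 4 and 5162, 6873, 9024 and 7905 in CD1d-KO 1 to 4, so that CD1d-KO 3 was again highest and CD1d-KO 1 lowest of its genotype. The part of enterocyte RNA in the Mttp values was not tested. Leaving out both Y-linked samples gave a log2 fold change of 0.27 (95% interval 0.06 to 0.48; DESeq2 adjusted p = 0.198), still not called. With the replicate number as a block it was 0.14 (95% interval 0.01 to 0.26; DESeq2 adjusted p = 0.299), also not called.

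Psap and Gm2a encode the lipid transfer proteins of the lysosome. Prosaposin, from Psap (chromosome 10, 60277628 to 60302600, plus strand), is cleaved into the saposins that lift lipids from membranes and exchange them on CD1d. Psap counted 16062.5, 17974, 18045 and 16007 in WT and 17362.5, 17385, 19629.9 and 17171 in CD1d-KO, so CD1d-KO 3 stood apart from its group while the other CD1d-KO samples lay within the WT range. The log2 fold change was 0.07 ± 0.07 (SE; 95% interval -0.07 to 0.21; DESeq2 adjusted p = 0.727). Gm2a (chromosome 11, 55097985 to 55113028, plus strand) encodes the GM2 activator, which lifts gangliosides from membranes for their breakdown. It had 636, 738, 603 and 693 normalised counts in WT and 673, 776, 775 and 689 in CD1d-KO, with overlap. Its log2 fold change of 0.13 ± 0.10 (SE; 95% interval -0.06 to 0.31; DESeq2 adjusted p = 0.591) was not called.

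Npc1 and Npc2 encode the membrane-bound and the soluble protein that hand cholesterol out of late endosomes and lysosomes. Npc2 (chromosome 12, 84754559 to 84773112, minus strand) was the one machinery gene whose genotypes did not overlap. WT samples gave 3628, 3759, 3708 and 3757 normalised counts and CD1d-KO samples 3803, 3889, 4165 and 3779.9, so that the lowest CD1d-KO value exceeded the highest WT value by a narrow margin. Of all tested genes, 4.11% separated the genotypes with CD1d-KO higher and 9.63% separated them in either direction. The size was small, 3909 ± 177 against 3713 ± 61.6 (SD, n = 4) or a log2 fold change of 0.07 ± 0.05 (SE; 95% interval -0.03 to 0.18; DESeq2 adjusted p = 0.579). Npc1 (chromosome 18, 12189694 to 12236386, minus strand) shared 164 exonic bases with Rmc1 in the annotation, where a fragment could not be given to either gene. It stood at 1149 ± 114 normalised counts in WT (1039 to 1306) and 1196 ± 77.7 in CD1d-KO (1104 to 1292), and CD1d-KO lay inside the WT range. Its log2 fold change was 0.06 ± 0.09 (SE; 95% interval -0.12 to 0.23; DESeq2 adjusted p = 0.861).

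Gla and Ctsl encode lysosomal hydrolases, and these were the members with the slightest changes. Gla (chromosome X, 134588169 to 134601005, minus strand), the α-galactosidase that trims terminal galactose from glycosphingolipids, had 474, 439.1, 439.2 and 526 normalised counts in WT and 445, 469, 511 and 397 in CD1d-KO. The CD1d-KO samples held both the second highest and the lowest value, and the log2 fold change was -0.04 ± 0.11 (SE; 95% interval -0.25 to 0.17; DESeq2 adjusted p = 0.933). Since Gla is X-linked, the samples without Y-linked counts were also compared, with a log2 fold change of -0.04 (95% interval -0.34 to 0.25). Ctsl (chromosome 13, 64361890 to 64370520, minus strand) encodes cathepsin L, a protease that the mouse thymus needs for NKT cell selection. Values of 505, 435, 446 and 402 in WT and 491, 467, 412 and 384 in CD1d-KO overlapped, with a log2 fold change of -0.03 ± 0.11 (SE; 95% interval -0.25 to 0.19; DESeq2 adjusted p = 0.959).

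Ap3b1 (chromosome 13, 94358960 to 94566316, plus strand) encodes the β3A subunit of AP-3, which sorts CD1d to lysosomes. Its coefficient of variation was 1.75% in WT and 2.36% in CD1d-KO, and only Npc2 in WT was steadier among the members (1.66%). WT samples gave 4735, 4791, 4825 and 4935 normalised counts and CD1d-KO samples 4839, 5014, 5099.6 and 5078, so 3 of the 4 CD1d-KO samples exceeded every WT sample. The difference came to 0.05 ± 0.05 on the log2 scale (SE; 95% interval -0.04 to 0.15; DESeq2 adjusted p = 0.659).

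The wider pathway was covered by 92 further genes in 8 lists, all of which were tested. DESeq2 called 0 of the 92 (4.04% of all genes were called), and edgeR called 0. At an unadjusted p under 0.05 there were 17, beside 15.3% of all genes. Log2 fold changes were above 0 for 44 and below 0 for 48, the median was -0.0031, and 82 passed the test for a change smaller than 1.5-fold. CD1d-KO was above WT without overlap for 4 genes (4.11% of all genes) and below it for 8 (5.52% of all genes). Medians of the 8 lists ran from -0.08 to 0.07.

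**Figure D4:**
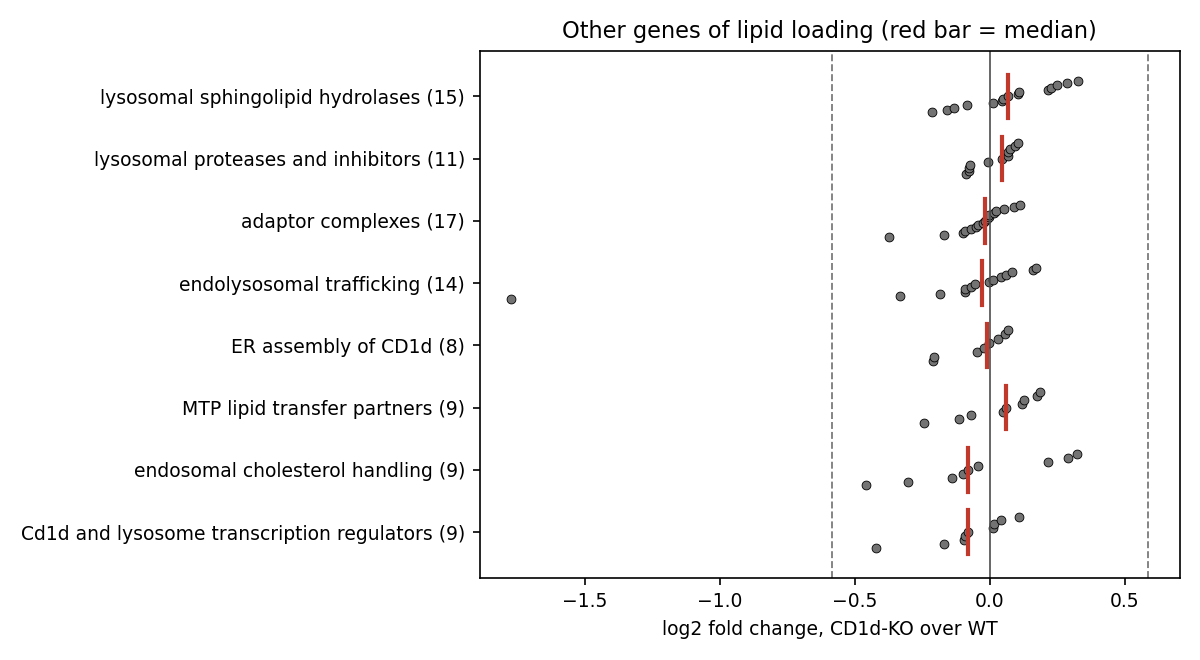
Log2 fold change of CD1d-KO over WT (x axis) for the 92 pathway genes by list, with the number of genes in parentheses, the list median as a red bar and dashed lines at 1.5-fold. Medians lie between -0.08 and 0.07, and the single point outside the dashed lines is Cd74, which was not called.

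In the lysosome, 15 sphingolipid hydrolases and their helpers had a median log2 fold change of 0.07. The members with the most extreme statistics were Glb1, the β-galactosidase of gangliosides (2398 ± 216 normalised counts in CD1d-KO and 2065 ± 64.8 in WT, SD, n = 4; log2 fold change 0.22; DESeq2 adjusted p = 0.0839), and the sialidase Neu1 (926 ± 53.2 and 1074 ± 55.9; -0.22; adjusted p = 0.0845). For 11 proteases and inhibitors, the relatives of Ctsl, the median was 0.05 and 0 had an unadjusted p under 0.05. Cathepsin H (Ctsh) had 3051 ± 129 normalised counts in CD1d-KO and 2913 ± 93.7 in WT, and the cystatin Cst3, an inhibitor of cathepsins, 2015 ± 9.61 and 1874 ± 107. The lowest CD1d-KO value of Cst3 was 2008 and the highest WT value 2001, with an adjusted p of 0.439.

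Among 17 adaptor subunits, the coat proteins that sort CD1d and other cargo, the median was -0.02. Ap3d1, the δ subunit of the AP-3 complex that Ap3b1 belongs to, had 5144 ± 112 normalised counts in CD1d-KO and 5512 ± 189 in WT, without overlap (log2 fold change -0.10; DESeq2 adjusted p = 0.313). The AP-1 subunit Ap1m1 had 823 ± 49.8 and 926 ± 22.4, also without overlap (-0.17; adjusted p = 0.203). Of 14 endolysosomal trafficking genes, the membrane protein Lamp1 came nearest to the threshold of all 92 genes. It gave 12090, 12798, 12756 and 12807.5 normalised counts in WT and 13141, 14918, 14387 and 14347.5 in CD1d-KO, so that every CD1d-KO sample was higher (log2 fold change 0.17 ± 0.06, SE; adjusted p = 0.0586). Lamp1 was called without CD1d-KO 1 (0.21; adjusted p = 0.0104) and with total-count scaling (0.17; adjusted p = 0.0362). These were 2 of 17 alternatives, over which its DESeq2 or edgeR adjusted p reached 0.569. Rilp, which ties late endosomes to dynein, had 193 ± 24.98 in CD1d-KO and 243 ± 33.2 in WT (adjusted p = 0.216).

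Cd74, the invariant chain that escorts MHC class II and can also bind CD1d, had the widest difference of the 92 and was singled out after its values were seen. WT samples 1 to 4 had 18626, 13157.5, 13393.5 and 17692 normalised counts, and CD1d-KO samples 1 to 4 had 299, 896, 9507 and 7712. All CD1d-KO samples were lower, but samples 1 and 2, those with Y-linked counts, were far below samples 3 and 4. With that spread the log2 fold change of -1.77 ± 0.96 (SE) had a DESeq2 adjusted p of 0.378. Without samples 1 and 2 the change was less wide, -0.87, and was called (adjusted p = 2.49e-07). Cd74 is also abundant in B cells and myeloid cells. In CD1d-KO 1 to 4 the summed markers were 3.14, 3.64, 2.15 and 2.57 TPM for B and plasma cells, 40.2, 43.2, 30.2 and 30.8 for myeloid cells and 3.01, 1.499, 4.92 and 6.38 for T and NK cells, and the part of immune RNA in the Cd74 values was not tested.

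In the ER, 8 genes of CD1d assembly had a median of -0.01. B2m, the light chain of CD1d and of MHC class I, had 16569, 17736, 18363 and 18847 normalised counts in WT and 13141, 15328.5, 16738.5 and 16548 in CD1d-KO, with overlap at the edge (log2 fold change -0.21 ± 0.08, SE; DESeq2 adjusted p = 0.155). The chaperone Hspa5 had 25596 ± 5899 in CD1d-KO and 29518 ± 2292 in WT (adjusted p = 0.511). For 9 partners of Mttp in lipoprotein assembly the median was 0.06. Apobec1, which edits the apolipoprotein B transcript, had 572 ± 56.0 and 678 ± 82.7 (adjusted p = 0.242), while Mia2, which helps export large cargo from the ER, had 7466 ± 209 and 6837 ± 187, without overlap (log2 fold change 0.13; adjusted p = 0.128).

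Of 9 genes of endosomal cholesterol handling, the setting of Npc1 and Npc2, 6 lay below 0 and the median was -0.08. An unadjusted DESeq2 p under 0.05 was found for 4 of the 9, beside 15.3% of all genes. The count was also 4 for the 15 sphingolipid hydrolases and for the 14 endolysosomal trafficking genes. The sterol-binding protein Osbpl1a had 454 ± 61.4 normalised counts in CD1d-KO and 364 ± 15.1 in WT (log2 fold change 0.32 ± 0.11, SE; DESeq2 adjusted p = 0.0893). The sterol transfer protein Gramd1a had 173 ± 14.4 and 238 ± 41.8, without overlap (-0.46 ± 0.15; adjusted p = 0.0590). Leaving out CD1d-KO 4 brought Osbpl1a past the threshold (adjusted p = 0.0158) and leaving out WT 3 did so for Gramd1a (adjusted p = 0.0350). Each was called in only that 1 of 17 alternatives. Over these the DESeq2 or edgeR adjusted p reached 0.968 for Osbpl1a and 0.490 for Gramd1a. For 9 genes of lysosome or Cd1d control, transcription factors and the calcium channel Mcoln1, the median was -0.08 and 0 had an unadjusted p under 0.05. Tfeb, the regulator of lysosomal genes, had 454 ± 6.53 in CD1d-KO and 511 ± 40.8 in WT, without overlap (adjusted p = 0.363), and Elf1, an Ets factor that binds Cd1d promoters, 4436 ± 161 and 4117 ± 351 (adjusted p = 0.524).

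Promoters were read for motifs because lysosomal genes often carry the E-box bound by Tfeb, one of the regulators measured. The RefSeq promoter table (GRCm38.p6) held 7 of the 10 genes, with 8 start sites in all, and the 250 bases before the start were searched on both strands. CACGTG, the E-box, occurred in 6.02% of 32851 windows and TCACGTGA, the E-box with the flanks that Tfeb prefers, in 0.785%, each match of the second being also a match of the first. Among the members, the E-box was present in Gla and Ctsl and the flanked form in Gla. GGGCGG, the GC box bound by Sp1, occurred in 32.7% of windows and in those of Gm2a, Npc2, Gla and Ap3b1. For Gm2a alone, the bases after the listed start were found in none of its GENCODE transcripts, so its window is less certain. The windows of Mttp and Psap held none of the 3 letter strings. Gla, with the flanked E-box at 228 and 195 bases before the start, and Mttp, the most abundant member, are shown 5′ to 3′ on the gene's strand, with matches in capitals.
Gla, chrX:134601006-134601255, minus strand: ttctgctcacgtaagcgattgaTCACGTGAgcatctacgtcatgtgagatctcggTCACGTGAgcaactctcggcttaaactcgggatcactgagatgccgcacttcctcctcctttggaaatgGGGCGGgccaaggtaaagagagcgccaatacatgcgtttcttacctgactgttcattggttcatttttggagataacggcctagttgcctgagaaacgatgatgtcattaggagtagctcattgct
Mttp, chr3:138143419-138143668, minus strand: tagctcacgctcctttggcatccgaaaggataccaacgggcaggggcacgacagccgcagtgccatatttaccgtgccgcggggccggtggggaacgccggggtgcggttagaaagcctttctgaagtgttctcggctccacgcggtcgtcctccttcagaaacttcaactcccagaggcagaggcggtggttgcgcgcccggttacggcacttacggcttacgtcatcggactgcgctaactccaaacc
A match describes these letters and says nothing of binding. Gla, with both Tfeb-type strings, and Mttp, with none, had log2 fold changes between genotypes of -0.04 and 0.14, neither called.

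The genes whose pattern over the 8 samples was most like that of each member were found among 11721 genes with a mean of at least 50 normalised counts, by Pearson's r of log2(normalised count + 1). These are descriptions over 8 points that share library and genotype. Mttp was most like Acy3 (r = 0.974) and the mitochondrial fatty acid enzyme Decr1 (0.967), and Psap most like the lipase Abhd6 (0.977). Npc2 was close to Ndufa10 (0.965), and Npc1 to Gm15545 (0.990) and Kyat1 (0.964). Gm2a was closest to Tnfrsf10b (0.940) and Thumpd2 (0.939), Gla to Rrp12 (0.968) and Raly (0.952), and Ctsl to Zfp783 (0.977) and Foxp4 (0.975). For Ap3b1 they were Erlin1 (0.971) and the glutamate dehydrogenase gene Glud1 (0.967). Of the genes named here for likeness, Glud1 alone was called, with a log2 fold change of 0.24 (DESeq2 adjusted p = 0.0436).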

How the data were processed

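The study sequenced poly(A) KAPA libraries of IECs sorted from the proximal small intestine. The authors deposited raw fragment counts per gene, with no normalization, made per the file headers with featureCounts 1.6.4 from read pairs over exons, by primary alignment and without strand. The header names an mm10 annotation and the methods HISAT2 alignment to GRCm39, and coordinates here are mm10. With strand unused, antisense transcripts are not separated. Replicates within a genotype differed beyond sampling noise (chi-square per degree of freedom 10.2 to 39.5 over 12854 genes), so none was a copy.

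The main test was that of DESeq2 1.42.0 in R 4.3.3, the study's tool, on all 8 samples with genotype as the only term and Benjamini-Hochberg adjustment over 15383 genes. Filtering at a mean of 2.53 normalised counts gave 3701 genes no adjusted p, as did Cook's rule for 4. Intervals are 95% and cover these samples. A change under 1.5-fold was tested by DESeq2's test against that bound. TPM was computed from the exonic length in the table, with no test. The floor of 3 fragments covers counting error only, because, with no molecular identifiers, fragments need not be separate molecules. Scripts were tested on simulated data, in which the share of false calls at this sample size was above the 0.05 threshold for DESeq2 and below it for edgeR, so DESeq2 calls near the threshold are less certain than their adjusted p. Calls were checked with edgeR 4.0.16, and the further alternatives were other scalings and filters, a replicate block, leaving out samples, the stomach score, and a term for Y-linked counts, the last chosen after seeing the data. Whether the replicate numbers pair the samples could not be decided.

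The members and lists were chosen with earlier results of these data known. Named genes are the members, in each list the 2 with the most extreme statistic where none was called, and for each member with a mean of at least 50 normalised counts the 2 most correlated genes. Ddx3y, Xist, Cd74, Gramd1c, Pla2g12b and Rmc1 were named after their values were seen. Some genes that the rule or an alternative would name are not reported here. The table had 0 per-sample columns left unused.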

Additional observations from a re-analysis of the deposited data

Results flagged for a closer look

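Of 52 groups of 4 samples examined (the named members and pathway genes by genotype), 6 held a sample whose gap to the others exceeded Dixon's 95% limit, and chance alone gives about 1 in 20. CD1d-KO 3 was the high sample in 4 of them. There Psap had 19629.9 normalised counts while the other CD1d-KO samples had 17171 to 17385, Ctsh had 3243 (others 2968 to 3007), Cst3 had 2029 (others 2008 to 2012), and Cd1d2 had 1.95 where the others were at 0, which is 2 fragments. CD1d-KO 3 also had the highest summed enterocyte markers of all samples, 9024 TPM. Lamp1 was low in WT 1, at 12090 normalised counts against 12756 to 12807.5 in the other WT samples, and Osbpl1a was high in WT 4, at 386 against 355 to 358.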

How the results depend on the processing

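Cd1d1 was called under each of 17 alternatives, with log2 fold changes from -5.13 to -3.93, and no machinery gene was called under any. Signs of uncalled changes turned for Gm2a (1 alternative), Npc1 (3), Gla (2) and Ctsl (2). The total of genes called was 622 in the main comparison, 228 by edgeR, 371 without both Y-linked samples and 100 with the stomach score, and leaving out 1 sample gave 323 (without CD1d-KO 2) to 645 (without CD1d-KO 3), with 409 without WT 1 and 385 without WT 2. The cause was not tested. Pathway genes called numbered 0 at first, 1 with total-count scaling (Lamp1), 2 without both Y-linked samples (Cd74 among them), 2 with a Y-linked term, chosen after seeing the data (Pla2g12b, 0.34, among them), and 0 to 3 leaving out 1 sample. The 3, with Lamp1 and Gramd1c among them, came without CD1d-KO 1, and Osbpl1a and Gramd1a were each called alone without CD1d-KO 4 and WT 3. The test for a change under 1.5-fold passed 5 members with the stomach score, in place of 8. Results with the stomach score are limited by its lack of overlap between genotypes.

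With the replicate number as a block, 572 genes were called and the log2 fold change of Cd1d1 was -4.47. In that fit 1 member was called, 8 passed the test for a small change and 1 pathway gene became called (B2m, -0.22, DESeq2 adjusted p = 0.0120). B2m was called under no other of the 17 alternatives. Same-numbered samples correlated at 0.277, -0.0938, 0.288 and -0.0859 after removing genotype means, and 2 of 4 numbers matched best with their own. So few samples cannot decide whether the numbers pair them. Cd1d2, at 2 fragments in all of CD1d-KO, is limited by depth, and the size of its difference could not be bounded.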
